A study of Arabidopsis thaliana with 26 samples.

Results

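PGM (AT1G78050) and ASPGB1 (AT3G16150) are metabolic genes of Arabidopsis thaliana, chosen because their transcripts were higher in roots given KNO3 than in roots given KCl. Each was matched by its locus and measured by 1 probe set, so the pair makes up 2 of the 22746 probe sets measured. Matching by locus matters for PGM, since the same symbol is also used for a phosphoglucomutase gene. The pair was chosen by the signal difference between the salts, so that difference is given as a description without a test.

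The tissue was labelled as roots of 14-day-old plants. Per the methods, Columbia plants grew in sterile hydroponics with ammonium succinate as nitrogen source and were without nitrogen for the last 24 h. They then received 1 mM KNO3 or, as the control salt, 1 mM KCl, and roots were harvested after 3, 6, 9, 12, 15 and 20 min. Roots taken before transfer are time 0, so all groups share the genotype, the ammonium-grown start and the nitrogen-free interval, and K+ was supplied with either salt. There were 2 ATH1 arrays in each of the 13 groups, 26 arrays in all. The paper calls them biological replicates, but no label says that they came from separate cultures. The p-values set differences between group means against the spread between the arrays of a group, estimated over all 13 groups. They may therefore not carry over to separately grown cultures.

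Phosphoglycerate mutase interconverts 3-phosphoglycerate and 2-phosphoglycerate in glycolysis, the step just before enolase makes phosphoenolpyruvate. Phosphoenolpyruvate and the organic acids made from it are the carbon skeletons on which roots build amino acids from newly assimilated nitrogen. Asparaginase works on the nitrogen side, splitting asparagine, a transport and storage amide of plants, into aspartate and ammonium. Nitrate reaches the same pool after reduction to nitrite and then to ammonium.

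Signals are the authors' MAS5 values, which summarize the brightness of a probe set as 1 linear number per array. The 8 arrays at 3 and 6 min stood apart from the other 18. Their median signal was 221 to 285, against 208 to 228 on the other arrays, and their replicates correlated less (median r 0.928 against 0.962 on log2 signals). Added bacterial spike-in transcripts averaged 11.9 to 12.8 on the log2 scale on these 8 arrays and 9.35 to 10.6 on the others. Of 10 root markers listed, EXPA7 and EXPA18, expansins of root hairs, were measured, at the 70.0th to 89.5th and the 67.8th to 89.0th percentile of the arrays. None of the 10 leaf markers listed was analysed here.

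PGM transcript was higher with KNO3 than with KCl from 9 min on, and the distance widened at each later time point. At time 0 its signal was 452 and 506 on the 2 arrays. In KNO3 roots it was 505 and 395 at 3 min, 798 and 460 at 6 min, and 1032 and 1128 at 9 min. It was 1478 and 1536 at 12 min, 1968 and 2281 at 15 min, and 3748 and 3893 at 20 min in KNO3 roots. From 9 min every KNO3 array lay above every array of the preceding time point and above both time 0 arrays. In KCl roots PGM was 413 and 446 at 3 min, 436 and 447 at 6 min, and 510 and 613 at 9 min. It was 577 and 514 at 12 min, 465 and 467 at 15 min, and 532 and 533 at 20 min in KCl roots. The 12 KNO3 arrays thus spanned 395 to 3893, with a median of 1303, whereas the 12 KCl arrays stayed between 413 and 613, with a median of 489.

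Expressed as log2, PGM in KNO3 minus KCl was 0.06, 0.46, 0.95, 1.47, 2.18 and 2.84 from the 3 min to the 20 min harvest (standard error 0.18 each). The last of these is a 7.17-fold higher signal with KNO3, and the mean over the 6 time points was 1.33 (standard error 0.07). The salts overlapped at 3 min, and at each later time both KNO3 arrays lay above both KCl arrays, at 6 min with 460 against 447 for the nearest ones. The 6 min value rests on KNO3 replicate 1. It was 0.06 without that array and 0.85 without replicate 2.

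**Figure D1:**
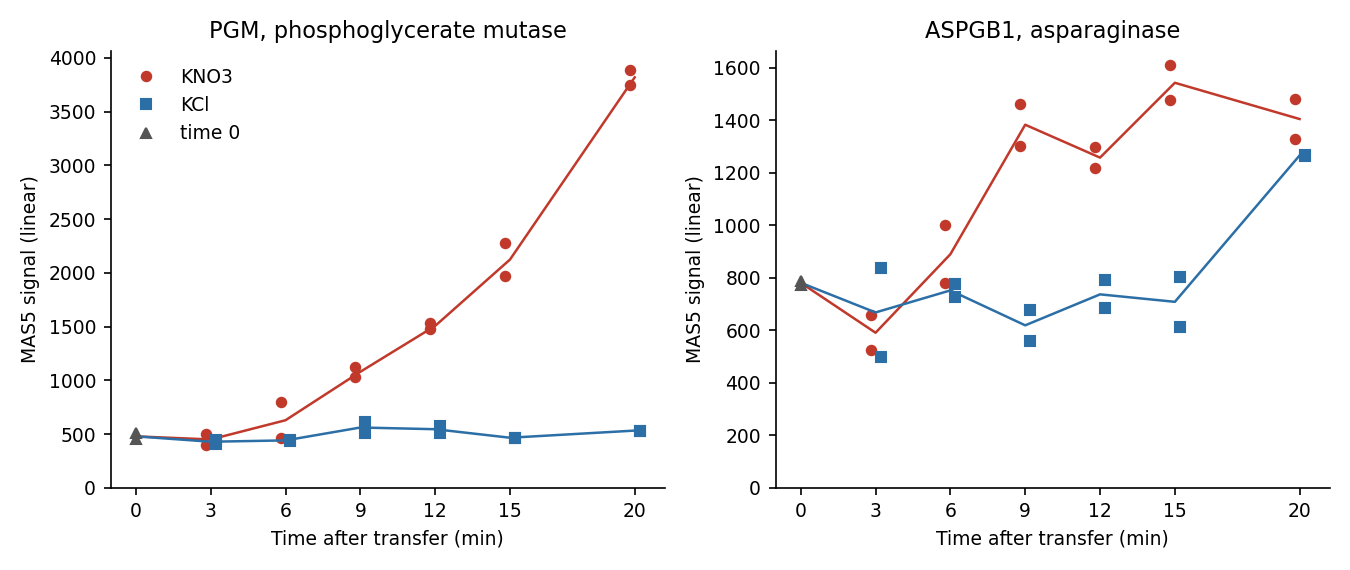
MAS5 signal (linear axis from 0) of PGM and ASPGB1 by time after transfer in min. Circles are KNO3 arrays, squares KCl arrays and triangles time 0 arrays, 2 per group, and lines join group means. PGM reaches 3748 and 3893 in KNO3 roots at 20 min and stays under 613 in KCl roots, while ASPGB1 at 20 min is 1330 to 1480 with KNO3 and 1263 to 1269 with KCl.

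ASPGB1 was higher with KNO3 at 9, 12 and 15 min, and at 20 min the KCl arrays lay close below the KNO3 arrays. Its signal at time 0 was 789 and 773. In KNO3 roots it was 657 and 524 at 3 min, 779 and 1001 at 6 min, and 1303 and 1463 at 9 min. It was 1299 and 1216 at 12 min, 1609 and 1476 at 15 min, and 1480 and 1330 at 20 min in KNO3 roots. All 8 KNO3 arrays from 9 min on lay above all KNO3 arrays at 3 and 6 min and above time 0, with no further order by time among them. In KCl roots ASPGB1 was 837 and 499 at 3 min, 778 and 726 at 6 min, and 679 and 559 at 9 min. It was 790 and 684 at 12 min, 805 and 612 at 15 min, and 1263 and 1269 at 20 min in KCl roots. Both KCl arrays at 20 min thus lay above the other 10 KCl arrays (499 to 837, median 705) and above both time 0 arrays.

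The log2 difference of ASPGB1, KNO3 minus KCl, was -0.14, 0.23, 1.16, 0.77, 1.13 and 0.15 in the same order of time (standard error 0.19 each). Its mean over the 6 time points was 0.55 (standard error 0.08). At 3 min the salts overlapped, and the sign of the difference turned with 1 array, to 0.23 without KCl replicate 1 and to -0.51 without KCl replicate 2. From 6 min on the KNO3 arrays lay above the KCl arrays at every time, at 6 min by less than 1 signal unit between the nearest arrays.

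Both genes belonged to the 172 probe sets (0.756%) whose KNO3 arrays both exceeded both KCl arrays at each of 9, 12, 15 and 20 min. Over all probe sets, 4.58% passed an adjusted p of 0.05 between the salts at 1 or more time points, 2.81% higher and 1.86% lower with KNO3. As the salt difference chose PGM and ASPGB1, these shares are only the scale on which the pair was picked. Among 22746 differences ordered from the highest, PGM ranked 9456, 2488, 579, 634, 291 and 21 over the 6 times. ASPGB1 ranked 407 at 9 min and 5112 at 20 min.

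The order of the group means differed between the genes. For PGM the 8 lowest groups were the 6 KCl groups, time 0 and KNO3 at 3 min, all between 429 and 561, and most neighbours in that order overlapped. Above them came the KNO3 groups in order of time, with means of 629, 1080, 1507, 2124 and 3820, where no group from 9 min on overlapped the next one. For ASPGB1 the 8 lowest groups, from 591 to 890, overlapped their neighbours and held time 0, both early KNO3 groups and the KCl groups up to 15 min. The 5 highest groups were KNO3 at 12 min (1258), KCl at 20 min (1266), and KNO3 at 9, 20 and 15 min (1383, 1405 and 1543). KCl at 20 min lay within the range of KNO3 at 12 min, so these neighbours were not separated.

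PGM means in KNO3 roots were in strictly rising order over the 6 time points, as in 80 probe sets (0.352%). ASPGB1 was not among them. The KNO3 signal took part in the choice of PGM, so this share is a description only. At the start the order rests on unlike PGM arrays, 505 and 395 at 3 min and 798 and 460 at 6 min. On the log2 scale PGM in KNO3 roots gained 0.28 per min between 6 and 9 min (standard error 0.06), then 0.16 per min between 9 and 12 min, 0.16 per min between 12 and 15 min, and 0.17 per min between 15 and 20 min. These later steps differed by less than their standard errors (0.06, 0.06 and 0.04 per min). The size of the PGM step between 6 and 9 min rests on 2 unlike KNO3 arrays at 6 min (log2 signals of 9.64 and 8.84). For both genes that step also runs from arrays that stood apart to the other arrays. Whether the gain of PGM slowed after 9 min was not tested. ASPGB1 in KNO3 roots gained 0.20 per min between 3 and 6 min and 0.22 per min between 6 and 9 min. Its later steps were -0.05, 0.10 and -0.03 per min (standard errors 0.07, 0.07 and 0.04). In KCl roots its step between 15 and 20 min was 0.17 per min, the same size as that of PGM in KNO3 roots in that interval.

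Time 0 gives a second baseline that the choice of the genes did not use. Each salt was set against it as a value, and only the mean of both salts was tested, because its error is independent of the difference between them. That mean includes the KNO3 arrays, so a gene that is high with KNO3 alone is also above time 0 in it. An independent error therefore does not make the size of that mean independent of how the genes were chosen. PGM in KNO3 roots minus time 0 was -0.10, 0.34, 1.17, 1.66, 2.15 and 3.00 on the log2 scale in order of time (standard error 0.18 each). In KCl roots minus time 0 it was -0.16, -0.12, 0.22, 0.19, -0.04 and 0.16, at most 0.22 in size. The group mean of PGM at 20 min was thus 7.97 times the time 0 mean with KNO3 and 1.11 times with KCl. For PGM the mean of both salts therefore mostly restates the KNO3 signal that chose the gene. Its adjusted p-values are not evidence separate from that choice.

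The mean of both salts for PGM rose above time 0 by 0.70 at 9 min (adjusted p = 0.045, limma with Benjamini-Hochberg adjustment, standard error 0.16). The corresponding increases were 0.92 at 12 min (limma adjusted p = 0.0059), 1.06 at 15 min (0.0012) and 1.58 at 20 min (6.4e-06). At 3 and 6 min the values were -0.13 and 0.11 (limma adjusted p 0.54 and 0.58). Of all probe sets 0.576% were higher than time 0 in this test at 9 min, and 0.413%, 0.914% and 0.594% at the later times in turn. At 3 min 23.2% and at 6 min 29.7% were higher, on the 8 arrays that stood apart, and neither gene was called there. The mean over the 6 time points was 0.71 for PGM (standard error 0.13, limma adjusted p = 0.0081), where 1.77% of probe sets were higher. The 9 min call was lost in 20 of the 26 fits that left out 1 array (limma adjusted p up to 0.44), and was kept only where 1 of the 4 arrays at 3 min or a KNO3 array at 6 min was the one left out. The 12 min call and that of the mean over time were lost without time 0 replicate 1 (limma adjusted p 0.16 and 0.18) and without time 0 replicate 2 (0.054 and 0.098).

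ASPGB1 in KNO3 roots minus time 0 was -0.41, 0.18, 0.82, 0.69, 0.98 and 0.84 in order of time (standard error 0.19 each). In KCl roots minus time 0 it was -0.27, -0.06, -0.34, -0.09, -0.15 and 0.70. The mean of both salts rose above time 0 by 0.77 at 20 min (limma adjusted p = 0.026, standard error 0.17), the time at which both salts were high. At 3 to 15 min that mean was -0.34, 0.06, 0.24, 0.30 and 0.41 (limma adjusted p 0.11, 0.79, 1, 0.66 and 0.33). Over the 6 time points it was 0.24 (standard error 0.14, limma adjusted p = 0.38). The 20 min call was lost when any 1 of the arrays at time 0 and at 20 min was left out (limma adjusted p 0.059 to 0.30). The 3 min value passed, at -0.53 (limma adjusted p = 0.0075), without KCl replicate 1 at 3 min.

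**Figure D2:**
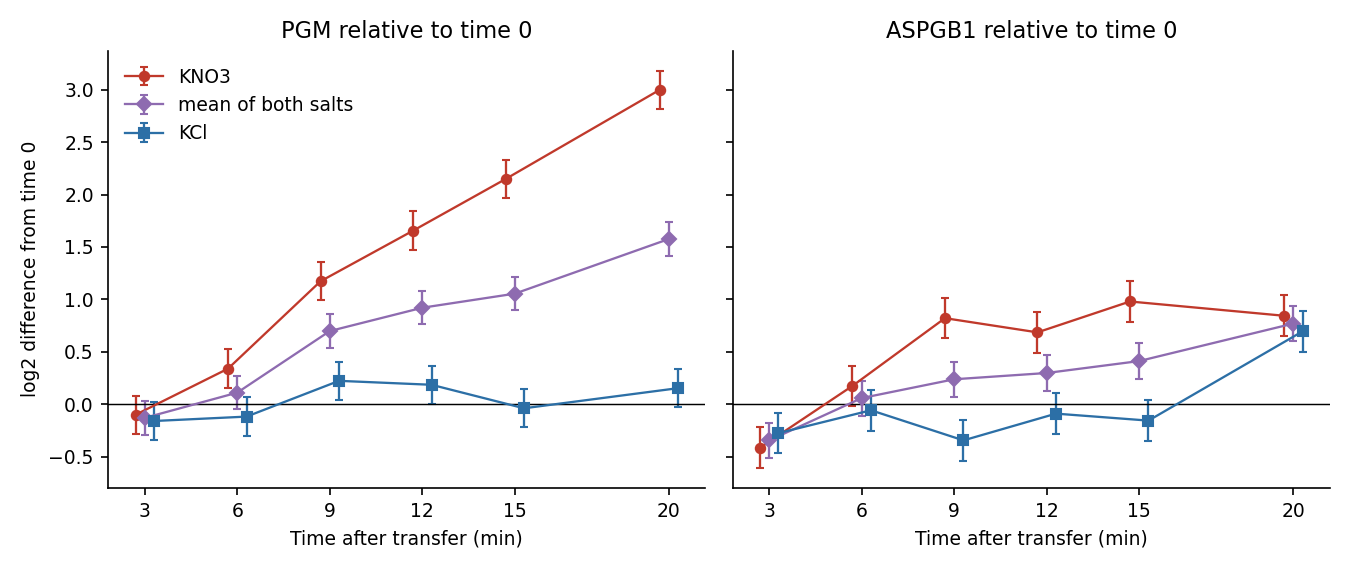
Log2 difference from time 0 (vertical axis) by time after transfer in min, with standard errors, for KNO3 (circles), the mean of both salts (diamonds) and KCl (squares). PGM with KCl stays between -0.16 and 0.22, while ASPGB1 with KCl is at 0.70 at 20 min, beside 0.84 with KNO3.

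The high KCl signal of ASPGB1 at 20 min was shared by 613 probe sets (2.69%), whose KCl arrays at 20 min both exceeded the other 10 KCl arrays and both time 0 arrays. PGM was not among them, with 532 and 533 at 20 min inside its range at the other KCl times. Within each array ASPGB1 stood at the 87.7th percentile on both KCl arrays at 20 min and at the 72.2nd to 82.5th on the other 10. After quantile normalization, which forces all arrays onto 1 distribution, KCl at 20 min minus time 0 was 0.66. What set these 2 arrays apart from the earlier KCl arrays was not tested.

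The log2 signals of PGM and ASPGB1 correlated with Pearson r of 0.755 over the 26 arrays, 0.798 over the 12 KNO3 arrays and 0.121 over the 12 KCl arrays. These values describe arrays that share treatment and time, and the arrays within a group are not independent points of a time course.

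The genes whose log2 signals ran closest to PGM over the 26 arrays, among 7347 with 1 gene and a signal above the 40th percentile, were found by Pearson r, which carries no test here. The closest was AT1G25550, a myb family transcription factor gene (r 0.958), which averaged 2014 in KNO3 roots and 294 in KCl roots at 20 min, with 232 at time 0. Its log2 differences between the salts were 0.16, 0.57, 1.15, 1.46, 2.03 and 2.78 in order of time, close to those of PGM at every time point. AT3G25790, another myb family gene (r 0.943), moved further, averaging 1229 in KNO3 roots and 69.4 in KCl roots at 20 min, a log2 difference of 4.14. AT4G36010, annotated to the thaumatin family (r 0.952), averaged 2329 in KNO3 roots and 400.3 in KCl roots at 20 min, with a difference of -0.21 at 6 min and 0.43 at 9 min. AT4G18340, of glycosyl hydrolase family 17 (r 0.941), and AT4G32950, a putative protein phosphatase 2C gene (r 0.930), differed by 1.43 and 1.22 at 20 min. ASPGB1 came 42nd in this order.

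For ASPGB1 the r values were lower, and its neighbours had a wider distance between the salts at 20 min than ASPGB1 itself. AT2G24550, of unknown function in the study's annotation, was nearest (r 0.840), with log2 differences between the salts of 0.80, 0.78, 0.90 and 0.74 from 9 min on. AT5G41670, annotated as a 6-phosphogluconate dehydrogenase of the oxidative pentose phosphate pathway (r 0.834), averaged 4479 in KNO3 roots and 1891 in KCl roots at 20 min. Its differences were 0.83, 1.01, 1.38 and 1.24 at 9, 12, 15 and 20 min. AT4G18340 was near ASPGB1 too (r 0.820), followed by AT5G19120 (r 0.815) and AT3G29760 (r 0.809). AT5G19120 averaged 1507 in KNO3 roots, 299 in KCl roots at 20 min and 120.5 at time 0. Differences at 20 min were between 0.71 and 2.33 for these 5 genes, against 0.15 for ASPGB1. PGM came 18th in this order.

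Among other genes on hand-written lists for these pathways, 1 passed the test between the salts, and the count ranged from 0 to 4 over the alternatives. A family name on a list does not show that a gene acts in the pathway. Lists of phosphoglycerate mutase genes, lower glycolysis and carbon skeletons, phosphoglucomutase, and asparagine and amide nitrogen held 71 genes without PGM and ASPGB1, of which 20 were measured here. Measured means that the annotation used matched a probe set to that 1 gene. The other listed genes had no such match and may still be on the array, so the counts do not describe the whole pathways. The glutamine synthetase gene GS2, which the study lists as regulated, was not among the 20. None of the 20 was called higher with KNO3 at any time and 1 was called lower, beside 2.81% higher and 1.86% lower of all probe sets. For the change of the salt difference between 3 and 20 min, 1 of the 20 passed, beside 1.34% of all probe sets in either direction. The median of their mean log2 difference was -0.000603, and that of all probe sets -0.03. Phosphoglucomutases, which interconvert glucose 1-phosphate and glucose 6-phosphate, were not analysed here.

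Of 13 listed genes of the phosphoglycerate mutase family 9 were measured, and 3 of them had a positive mean difference. AT1G22170, annotated like PGM as a phosphoglycerate/bisphosphoglycerate mutase, had signals of 1060 and 1074 in KNO3 roots at 20 min, against 616 and 633 in KCl roots and 603 and 521 at time 0. The KNO3 arrays at 20 min were its highest. On the log2 scale the difference between the salts at 20 min was 0.77 (standard error 0.20, limma adjusted p = 0.088), which missed the threshold. Its differences at 12 and 15 min were 0.03 and 0.15, when PGM differed by 1.47 and 2.18. The study lists AT1G22170 among genes it chose on these samples, so its direction is not independent evidence.

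AT2G17280, also listed in that family, was the gene called lower. At 15 min it had 428 and 523 in KNO3 roots, against 762 and 720 in KCl roots, a log2 difference of -0.65 (standard error 0.16, limma adjusted p = 0.046). It remained called at some time point in 9 of the 26 fits that left out 1 array and in none of those without the trend, with quantile normalization or without 3 and 6 min. At 9 min it had 570 and 545 in KNO3 roots and 823 and 945 in KCl roots (-0.66, limma adjusted p = 0.082), and at 12 min 473 and 383 against 517 and 717 (-0.52, limma adjusted p = 0.15). At 20 min the groups overlapped, with 620 and 562 in KNO3 roots and 544 and 607 in KCl roots. AT3G05170 had the largest mean difference of the family, 0.46 with a standard error of 0.26. Its values at 3 and 6 min were low in both salts, from 27.3 to 160 in KNO3 roots and 13.2 to 72.6 in KCl roots, against 234 and 279 at time 0, and it was not called.

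**Figure D3:**
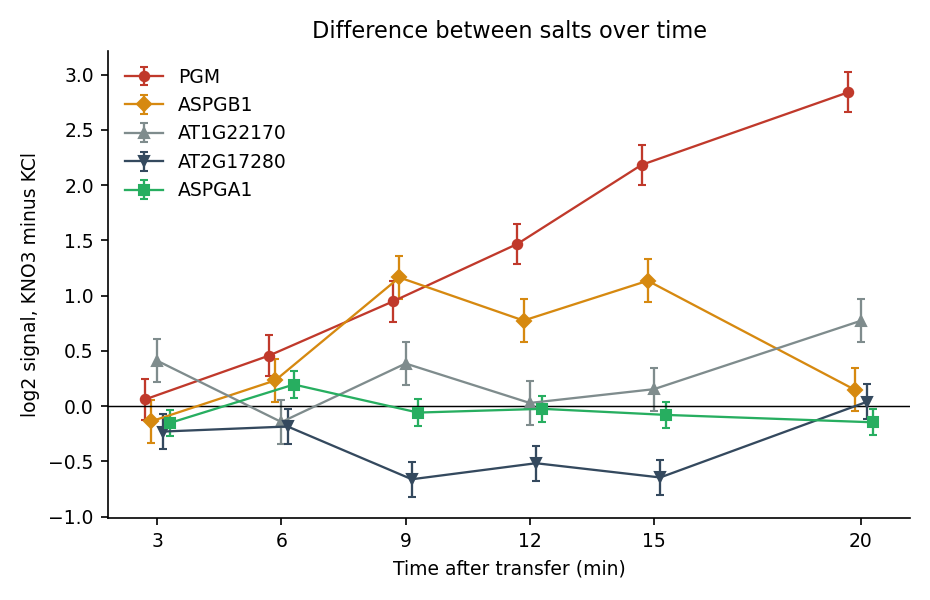
Log2 signal in KNO3 minus KCl (vertical axis) by time after transfer in min, with standard errors, for PGM, ASPGB1, 2 other phosphoglycerate mutase family genes and the asparaginase gene ASPGA1. PGM reaches 2.84 at 20 min, ASPGB1 is at 0.15 there, AT1G22170 is at 0.77, and AT2G17280 is lowest at 9 and 15 min.

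Of 29 listed genes of lower glycolysis and carbon skeletons 10 were measured, and none was called between the salts. ENOC, an enolase gene acting just after phosphoglycerate mutase, had a mean difference of 0.13 (standard error 0.06). ALDH11A3, a non-phosphorylating glyceraldehyde 3-phosphate dehydrogenase, had 0.23 (standard error 0.33) at a mean signal of 81.6. AT4G26390, listed as a pyruvate kinase, had a mean signal of 22.5 and a difference of 2.79 at 15 min (standard error 0.74, limma adjusted p = 0.072). The study lists AT4G26390 among genes regulated at 15 min on these samples, so this value is not independent evidence. GAPC2, a cytosolic glyceraldehyde 3-phosphate dehydrogenase, was the only one of the 20 called against time 0 in the mean of both salts and 6 time points (0.54, limma adjusted p = 0.021), with a salt difference of -0.06. Its time 0 mean was 12864. The group means were below that at 9 min (11952 with KNO3 and 12264 with KCl) and at 20 min (11870 with KNO3 and 10741 with KCl). At 15 min they were above it, at 15670 with KNO3 and 15411 with KCl. The called mean includes the 3 and 6 min arrays, which stood apart and on which 23.2% and 29.7% of probe sets were higher than time 0.

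ASPGA1, the other asparaginase gene, was the 1 measured member of 26 listed for asparagine and amide nitrogen. It averaged 1008 ± 47.4 in KNO3 roots and 1115 ± 6.69 in KCl roots at 20 min, and 1077 ± 22.8 at time 0 (SD, n = 2 each). Its mean difference between the salts was -0.04 (standard error 0.05), and no time point was called. Its mean over both salts and 6 time points was -0.03 from time 0 (standard error 0.09, limma adjusted p = 0.91).

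**Figure D4:**
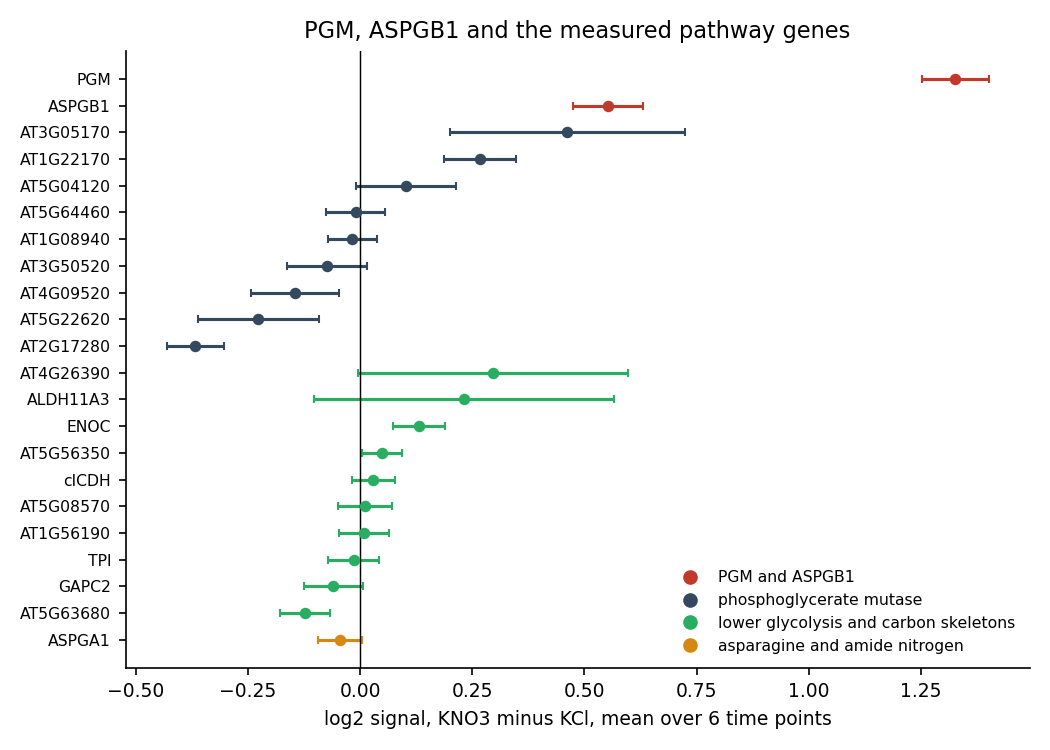
Mean over 6 time points of log2 signal in KNO3 minus KCl (horizontal axis), with standard errors, for PGM, ASPGB1 and the 20 measured genes of the pathway lists. PGM (1.33) and ASPGB1 (0.55), which this difference chose, lie to the right of the other genes, which run from -0.37 to 0.46.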

How the data were processed

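Labelled cRNA made from total root RNA was hybridised to ATH1 arrays. The deposited intensity values are linear signals that the authors computed with MAS5. A target median is stated in the methods, but the deposited scale follows another one, since the mean after trimming 2% at each end was 500 on every array. Array data carry no read depth, so the number of arrays limits the precision.

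Of 22810 probe sets, 64 controls were left out. The annotation gave 1 gene for 13513, several for 503 and none for 8730, with names updated through the TAIR10.1 gene table. limma 3.58.1 (R 4.3.3) was fitted to log2 signals of 13 groups with an intensity trend (13 residual and 7.41 prior degrees of freedom), and p was adjusted by Benjamini-Hochberg within each comparison at 0.05. Values below 1, numbering 1517, were kept. The step was tested on simulated data for KNO3 against KCl at 9 min over 22746 probe sets. It recovered 4 of 50 changes of 0.5 on the log2 scale, 30 of 50 of 1, 49 of 50 of 2 and 49 of 50 of 3, with 8 false calls.

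The genes and lists were chosen with earlier results of these data known. Lists were written by hand, and list members that are not named in the annotation used carry the list's family name. Named genes are the pair, list members called or with the 3 largest mean differences per list, and the 5 probe sets most like each of the pair. GAPC2 and AT5G04120 fall outside that rule and were named after their values were seen. The fit was repeated without the trend, on probe sets above the 40th percentile, after adding 32 to each signal, after quantile normalization, with the replicate number as a block, without 3 and 6 min, and without each array. The sequential linear model of the methods (first step p under 0.01) was also run. Leaving out 20 min and using the 3 and 6 min arrays alone were added after seeing the data.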

Additional observations from a re-analysis of the deposited data

Results flagged for a closer look

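The salt difference of AT5G04120, listed in the phosphoglycerate mutase family, differed between 20 and 3 min. The log2 difference in KNO3 minus KCl at 20 min, less that at 3 min, was -1.58 (limma adjusted p = 0.044), with 692 ± 140 in KNO3 roots and 1276 ± 124 in KCl roots at 20 min (SD, n = 2 each). Over the 6 times in order the difference was 0.68, 0.04, 1.02, -0.58, 0.35 and -0.89 (standard error 0.27 each), so size and sign alternated, and no time point was called by itself. The 3 min arrays are among the 8 that stood apart from the others.

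In a further 3 genes the KNO3 arrays lay on opposite sides of the KCl arrays at different times, which was not tested as such. For ALDH11A3 both KNO3 arrays were above both KCl arrays at 12 min and below at 9 min (-0.89 on the log2 scale at 9 min). For ENOC they were above at 3, 12 and 15 min and below at 20 min (-0.12 at 20 min). For AT4G26390 they were above at 15 min and below at 9 and 20 min (-1.63 at 20 min). AT4G26390 and ALDH11A3 were dim, with mean signals of 22.5 and 81.6, and at 9 min their group means were 11.3 and 26.3 with KNO3, against 13.4 and 48.6 with KCl. The 25th percentile of signal was 48.5 to 64.1 on the arrays other than those at 3 and 6 min, so the sides taken by these dim probe sets are given as values only. The test of the 20 min difference against that at 3 min gave limma adjusted p of 0.93 for ALDH11A3, 0.35 for ENOC and 0.67 for AT4G26390. What accounts for these values was not tested.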

How the results depend on the processing

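The increase of PGM in the mean of both salts over time 0 was fitted again under 7 alternatives (6 at 20 min) other than leaving out single arrays. At 12, 15 and 20 min and over the 6 time points it stayed past the threshold under each. That mean mostly restates the KNO3 signal that chose PGM, so passing again is not separate evidence. The same increase at 9 min was lost without the trend (limma adjusted p = 0.16), with quantile normalization (0.63, adjusted p = 0.16) and without 20 min (adjusted p = 0.094), and that of ASPGB1 at 20 min without the trend (adjusted p = 0.11). For the mean over time, the mean of both salts for ASPGB1 passed without 3 and 6 min (0.43, limma adjusted p = 0.045). It includes the KNO3 arrays that chose the gene, so this pass is not separate evidence. ASPGB1 with KCl minus time 0 was -0.34, -0.09 and -0.15 at 9, 12 and 15 min, and 0.70 at 20 min. The mean difference between the salts, KNO3 minus KCl, was 1.86 for PGM and 0.81 for ASPGB1 without 3 and 6 min, 1.02 for PGM without 20 min, and 0.26 for PGM and 0.047 for ASPGB1 on the 3 and 6 min arrays alone. These shifts follow from the time points averaged. The count of 1 pathway gene called became 0 without the trend, with quantile normalization, without 20 min and on the 3 and 6 min arrays alone. It became 2 with an offset of 32 (AT2G17280 and AT4G26390), 2 without 3 and 6 min (AT1G22170 and AT5G04120) and 4 in the methods' sequential model (these 4 genes). The cause was not tested.

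Leaving out each array in turn gave 1.26 to 1.39 for the mean salt difference of PGM and 0.49 to 0.61 for that of ASPGB1. The mean of both salts over time 0 ranged from 0.62 to 0.79 for PGM, with the call lost without 2 of the 26 arrays (adjusted p up to 0.18), and from 0.21 to 0.27 for ASPGB1. The pathway count ranged from 0 to 2. At 6 min the mean of both salts changed sign, ranging between -0.086 and 0.31 for PGM and between -0.030 and 0.15 for ASPGB1.

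Replicate numbers gave little sign of pairing the samples across all groups. Deviations of same-numbered arrays correlated above 0.1 in 18 of 78 pairs of groups (median 0.0193, range -0.188 to 0.264). The check cannot exclude pairing between some groups, since a low median leaves single pairs open. With the replicate number as a block, the mean of both salts over time 0 was 0.71 for PGM (adjusted p = 0.0096) and 0.24 for ASPGB1 (adjusted p = 0.33), the mean salt differences were 1.33 and 0.55, and 1 pathway gene was called. The block changed no other call.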
